A study of Homo sapiens with 6 samples.

Results

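The 33 genes described here encode the enzymes that build cholesterol and fatty acids, together with the proteins that switch them on. They are 18 sterol enzymes, 5 regulators, the sterol carrier STARD4 and 9 genes of fatty acid synthesis, desaturation and lipid assembly. The genes were taken by name, and the group itself was chosen on the values of the same comparison of 2 cell lines that is given below, so what follows describes those values and offers no test of the group. A gene was read only on a probe set that names that gene alone, which left 31 of the 33 genes, out of 18377 genes with such a probe set on the array. FDFT1 was not analysed here, and HSD17B7 was read only on a probe set that it shares with HSD17B7P2, so it has no value of its own.

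The measurements are gene expression levels of total RNA on Affymetrix HuGene ST arrays, 3 arrays for each of 2 lines. The parent, HEK293, is an established cell line derived from embryonic human kidney. HEK-BAHD1 carries 1 inserted copy of the cDNA of BAHD1, a chromatin protein that promotes heterochromatin, driven by the constitutive CMV promoter. HEK293-CT, the isogenic control line, carries in its place a β-galactosidase sequence out of frame according to the sample labels, or an empty vector according to the paper. Both lines grew without added inducer in serum-containing medium under hygromycin B, and the animal serum in that medium brings lipoproteins and fatty acids. Each line was 1 stable pool of transfectants grown in separate flasks, so the spread between arrays is that between cultures of 1 pool per line. RNA of HEK-BAHD1 replicate 2 came from a later passage than that of HEK-BAHD1 replicate 1 and of the control line, and none is stated for HEK-BAHD1 replicate 3.

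The signal of BAHD1 itself serves as a check on which line is which. On the log2 scale BAHD1 read 10.06, 9.81 and 9.93 across replicates 1 to 3 labelled HEK293-CT, and 6.75, 7.0 and 6.76 across the HEK-BAHD1 ones. The overexpressed gene was thus lower on the arrays that carry its name, by -3.10 on the log2 scale (standard error 0.093, n = 3 arrays per line), which goes against the labels. The paper's own RT-QPCR and immunoblots of these lines show BAHD1 in the opposite direction, higher in HEK-BAHD1. The study also lists 3 genes met below, NSDHL, EBP and ACSL4, as lower in HEK-BAHD1, whereas all 3 were higher on the arrays so labelled. That list was drawn from the study's own arrays of these lines and is no independent measurement. Directions below follow the deposited labels, and every sign, fold change and rank would turn round if the labels of the lines had been exchanged. Values of a gene are listed in the order of the replicates, those of HEK293-CT first. The array medians lay between 5.46 and 5.56, and precision is limited by how few arrays there are. In RNA of whole cultures, fewer cells that express a gene and less RNA of it per cell cannot be told apart.

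Cholesterol and fatty acid synthesis share 1 control circuit. The SREBP factors are made as membrane proteins of the endoplasmic reticulum, where SCAP escorts them and the INSIG proteins hold the SCAP complex back while sterols are abundant. When membrane sterol falls, SCAP carries SREBP to the Golgi, proteases release its active part, and that part enters the nucleus and switches on the synthesis genes. SREBF2 encodes the factor known for sterol genes and SREBF1 those known for fatty acid genes, with much overlap. INSIG1 is itself a target, which closes a feedback loop.

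A transcript is said to be called when limma, fitted over the 21062 probe sets that name at least 1 gene, gave an adjusted p under 0.05 and the medians of the lines differed by more than 0.2 on the log2 scale. Of the 31 measured genes, 17 were called higher in HEK-BAHD1 as labelled, and 0 lower. The same call was made upward for 6.79% and downward for 6.39% of all tested probe sets. Before adjustment, limma put 23 of the genes higher and 0 lower at p under 0.05, and the LPE test called 19 higher and 0 lower. Shares of all tested probe sets were not taken for the unadjusted p or the LPE test, here or below. The shares just given are those of the limma call and are no measure for these counts. All 3 arrays labelled HEK-BAHD1 lay above all 3 labelled HEK293-CT for 23 genes, and for 0 genes they lay below. That complete separation held upward for 16.7% and downward for 16.9% of the tested probe sets. The median log2 fold change of the 31 genes was 0.25, between -0.19 and 1.15, and the median of all tested probe sets was 0.0033. Because the group was picked for this contrast, nothing is read from the difference between those shares. All 31 stayed among the 70% brightest probe sets, of which 10.6% were called higher and where 19 of the genes were called. The count of 17 fell to 8 without HEK293-CT replicate 3 and to 11 without HEK-BAHD1 replicate 2.

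**Figure D1:**
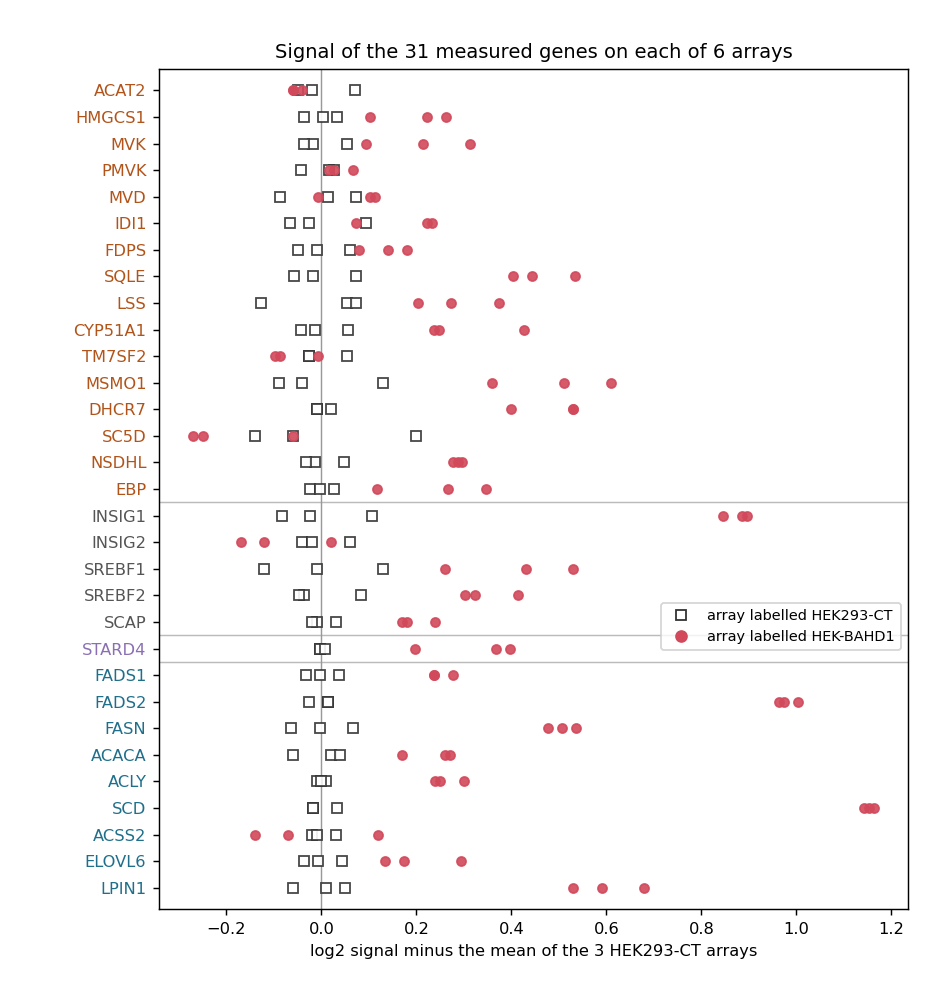
Log2 signal of each measured gene (rows) on each of the 6 arrays, given as the difference from the mean of the 3 arrays labelled HEK293-CT (horizontal axis). Open squares are arrays labelled HEK293-CT and filled circles arrays labelled HEK-BAHD1; SCD, FADS2 and INSIG1 stand farthest to the right, and the circles of 8 genes overlap the squares.

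The regulators come first, with the promoters of INSIG1 and SREBF2. A few short motifs were looked for on both strands of the 300 bases around each annotated RefSeq start, 250 before it and 50 after. The SRE core TCACNCCAC is a form of the element that SREBP binds, and the looser CACNCCAC lies within it, so every core match is also a loose match. CCAAT is the box of the factor NF-Y and GGGCGG the GC box of SP1, both known to act beside SREBP. CACGTG is the E-box, which SREBP can also bind.

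INSIG1 holds SCAP back in the endoplasmic reticulum and lies on chromosome 7. Its log2 signals were 8.52, 8.33 and 8.39 on the arrays labelled HEK293-CT and 9.26, 9.30 and 9.31 on those labelled HEK-BAHD1. The lines did not overlap, and the lowest array labelled HEK-BAHD1 lay 0.74 above the highest labelled HEK293-CT. On the log2 scale the mean difference was 0.88 (standard error 0.064), or 1.84-fold, and it ranked 55 from the highest among the 21062 probe sets, which would be from the lowest with the labels exchanged. INSIG2, a second anchor of SCAP on chromosome 2 that is not known as a strong SREBP target, gave 8.87, 8.97 and 8.89 against 8.79, 8.93 and 8.74. Its lines overlapped, the log2 fold change was -0.09 (standard error 0.067), and it was not called.

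SREBF2, the gene of the sterol-directed factor, gave log2 signals of 8.23, 8.11 and 8.10 on the arrays labelled HEK293-CT and 8.56, 8.45 and 8.47 on those labelled HEK-BAHD1. SREBF1 gave 6.32, 6.07 and 6.18 against 6.45, 6.72 and 6.62, and its probe set does not tell the SREBP-1a from the SREBP-1c transcript. Both factors were called higher with lines that did not overlap, SREBF2 by 0.35 (standard error 0.062) and SREBF1 by 0.41 (standard error 0.091) on the log2 scale. The control arrays of SREBF1 were more spread than those of SREBF2, and only 0.13 lay between its lines. SCAP, the escort, gave 8.01, 8.05 and 8.0 against 8.19, 8.20 and 8.26. It did not overlap either and differed by 0.20 on the log2 scale (standard error 0.052), but its medians differed by 0.19 and it was not called. Of the 5 regulators, 3 were thus called higher, beside 6.79% of all tested probe sets. The call of SREBF2 was lost only without HEK293-CT replicate 3, at a limma adjusted p of 0.0503. The call of SREBF1 was lost without HEK293-CT replicate 2 or 3 and without HEK-BAHD1 replicate 2 or 3, with a limma adjusted p up to 0.0831.

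The stretches upstream of INSIG1 and SREBF2 are shown because these 2 called regulators hold an SRE match close to their start. They run 5′ to 3′ on the plus strand of GRCh38.p14 up to the last base before the start, at chr7:155297660-155297877 for INSIG1 and at chr22:41832962-41833104 for SREBF2. Capitals mark the SRE and NF-Y matches.
INSIG1: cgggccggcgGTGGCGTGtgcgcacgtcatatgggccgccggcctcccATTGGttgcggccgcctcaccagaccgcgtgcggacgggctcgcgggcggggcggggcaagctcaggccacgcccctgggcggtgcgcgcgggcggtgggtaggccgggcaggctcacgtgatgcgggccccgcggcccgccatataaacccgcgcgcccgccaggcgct
SREBF2: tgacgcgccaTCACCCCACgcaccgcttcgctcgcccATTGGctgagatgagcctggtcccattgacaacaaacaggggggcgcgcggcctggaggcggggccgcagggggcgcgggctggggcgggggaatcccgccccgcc
INSIG1 holds a loose SRE from base -208 to -201, read on the minus strand as CACGCCAC, and an NF-Y box from -170 to -166. It also holds an E-box from -55 to -50, left in lower case above. SREBF2 holds TCACCCCAC from -133 to -125, the only SRE core match among the genes described here, and an NF-Y box from -106 to -102.

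The fatty acid branch held the largest differences. Of its 9 genes, 7 were called higher and 0 lower, beside 6.79% and 6.39% of all tested probe sets. The median log2 fold change of the 9 genes was 0.26 and the mean 0.46 ± 0.39 (SD, n = 9 genes). Unadjusted, limma put 8 higher and 0 lower at p under 0.05, and the LPE test called 7 higher and 0 lower. The 7 calls became 4 without HEK293-CT replicate 3 or without HEK-BAHD1 replicate 2.

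SCD places the double bond that turns stearate into oleate. It gave 9.12, 9.17 and 9.12 on the arrays labelled HEK293-CT and 10.30, 10.28 and 10.29 on those labelled HEK-BAHD1. Replicates of either line stood within a few hundredths of each other, and 1.11 lay between the lines. The log2 fold change of SCD was 1.15 (standard error 0.05), or 2.22-fold, which ranked 17 from the highest of all tested probe sets, or from the lowest with the labels exchanged. FADS2 and FADS1, neighbouring desaturases of polyunsaturated fatty acids on chromosome 11, differed from each other in size. FADS2 gave 7.81, 7.85 and 7.85 against 8.80, 8.84 and 8.81, and FADS1 gave 8.17, 8.21 and 8.14 against 8.41, 8.41 and 8.45. Neither overlapped between lines. The log2 fold change was 0.98 (standard error 0.05), or 1.97-fold, for FADS2 and 0.25 (standard error 0.051), or 1.19-fold, for FADS1. The call of FADS1 stood in only 1 of the 6 fits that left out an array, that without HEK293-CT replicate 2, with a limma adjusted p of 0.0424 to 0.0793 over the 6.

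The promoter stretch of SCD is shown because it was the called fatty acid gene with the largest fold change and holds a loose SRE. It lies at chr10:100346994-100347232 on the plus strand of GRCh38.p14, and capitals again mark SRE and NF-Y matches.
SCD: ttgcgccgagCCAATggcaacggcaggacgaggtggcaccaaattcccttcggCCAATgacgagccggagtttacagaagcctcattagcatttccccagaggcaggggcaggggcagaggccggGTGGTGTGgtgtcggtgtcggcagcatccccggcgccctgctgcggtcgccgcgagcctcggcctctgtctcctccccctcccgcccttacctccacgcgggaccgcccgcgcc
Its NF-Y boxes lie from -229 to -225 and from -186 to -182, and its loose SRE from -114 to -107, read on the minus strand as CACACCAC.

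The enzymes that make palmitate from citrate had smaller fold changes than SCD. ACLY, which splits citrate into cytosolic acetyl-CoA, gave 11.13, 11.11 and 11.12 against 11.36, 11.42 and 11.37. ACACA, which makes malonyl-CoA, gave 8.17, 8.09 and 8.19 against 8.41, 8.42 and 8.32. FASN, the synthase that joins these units, gave 8.90, 8.77 and 8.83 against 9.37, 9.31 and 9.34. All 3 enzymes were called higher without overlap, by 0.26 for ACLY (standard error 0.05), 0.23 for ACACA (standard error 0.058) and 0.51 for FASN (standard error 0.057) on the log2 scale. LPIN1, a phosphatidate phosphatase on the way to triglycerides and phospholipids, gave 7.58, 7.54 and 7.47 against 8.12, 8.21 and 8.06. It was called higher by 0.60 (standard error 0.062), or 1.52-fold, again with no overlap. ACACA lost its call in every fit that left out 1 array, with a limma adjusted p of 0.0518 to 0.103. ACLY lost it without HEK293-CT replicate 3, at 0.0599 in limma, and without HEK-BAHD1 replicate 2, at 0.0507.

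ACSS2 and ELOVL6 were the fatty acid genes without a call. ACSS2, which activates acetate to acetyl-CoA and is a known SREBP target, gave 7.27, 7.22 and 7.23 on the arrays labelled HEK293-CT and 7.36, 7.10 and 7.17 on those labelled HEK-BAHD1. Here the lines overlapped fully, since HEK-BAHD1 replicate 1 lay above and the other two below the control arrays, and the log2 fold change was -0.03 (standard error 0.075). Without HEK-BAHD1 replicate 2 it was 0.03. ELOVL6, which elongates palmitate to stearate for SCD, differed by 0.20 on the log2 scale (standard error 0.062) without overlap and was not called.

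The sterol branch differed by smaller amounts. Of 16 measured enzymes, 6 were called higher and 0 lower, beside 6.79% and 6.39% of all tested probe sets. For 10 enzymes the lines did not overlap, all with HEK-BAHD1 as labelled higher, as held for 16.7% of all tested probe sets. Log2 fold changes ran from -0.19 to 0.49, with a median of 0.20. Unadjusted, limma put 10 higher and 0 lower at p under 0.05, and the LPE test called 8 higher and 0 lower. Without HEK293-CT replicate 3, only 3 enzymes were called.

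Along the pathway, the calls lay after squalene, a split that was made after the values were seen. The 7 measured enzymes up to farnesyl diphosphate had 0 calls and a median log2 fold change of 0.13. At an unadjusted p under 0.05, 3 of them were higher in limma (HMGCS1, MVK and IDI1), and the LPE test called 2, HMGCS1 and IDI1. Their fold changes on the log2 scale were -0.05 for ACAT2, the thiolase that starts the pathway, 0.20 for HMGCS1, the synthase of the next step, and 0.21 for the kinase MVK. They were 0.04 for the kinase PMVK, 0.07 for the decarboxylase MVD, 0.18 for the isomerase IDI1 and 0.13 for FDPS, which makes farnesyl diphosphate. HMGCS1, MVK and FDPS did not overlap between lines, by at most 0.07 on the log2 scale, and the other four did. Such upward separation held for 16.7% of all tested probe sets. From squalene onward, 6 of 9 measured enzymes were called and the median was 0.29. Whether the fold changes before and after squalene differ was not tested.

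SQLE, the epoxidase that limits the late pathway, gave 9.81, 9.90 and 9.77 on the arrays labelled HEK293-CT and 10.36, 10.27 and 10.23 on those labelled HEK-BAHD1. MSMO1, which helps to strip methyl groups from the sterol ring, gave 8.57, 8.79 and 8.62 against 9.27, 9.17 and 9.02. DHCR7, the last reductase before cholesterol, gave 9.28, 9.25 and 9.25 against 9.79, 9.79 and 9.66. No array labelled HEK-BAHD1 reached down to a control array for these 3 enzymes, and all 3 kept their call in each fit that left out 1 array. Their log2 fold changes were close, at 0.46 for SQLE (standard error 0.062), 0.49 for MSMO1 (standard error 0.086) and 0.49 for DHCR7 (standard error 0.058).

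LSS, which closes the ring to lanosterol, gave 8.50, 8.32 and 8.52 against 8.65, 8.82 and 8.72. CYP51A1, the lanosterol demethylase, gave 8.89, 8.92 and 8.99 against 9.36, 9.17 and 9.18. NSDHL, a sterol dehydrogenase of a later step, gave 8.27, 8.33 and 8.25 against 8.57, 8.58 and 8.56. All were called higher with lines apart, by 0.28 for LSS (standard error 0.076), 0.30 for CYP51A1 (standard error 0.069) and 0.29 for NSDHL (standard error 0.051) on the log2 scale. The replicates of NSDHL were much tighter than those of LSS, whose control arrays spread over more than the gap of 0.13 between its lines. LSS lost its call in all 6 fits that left out an array, with a limma adjusted p of 0.0677 to 0.125. CYP51A1 lost it in 5 of them, all but that without HEK-BAHD1 replicate 2, with a limma adjusted p of 0.0492 to 0.0863 over the 6. NSDHL lost it only without HEK293-CT replicate 3, at 0.055 in limma. EBP, the sterol isomerase that lies with NSDHL on chromosome X, had lines apart and a log2 fold change of 0.24 (standard error 0.069) but missed the call. EBP and NSDHL are on a list of X-linked genes down-regulated in HEK-BAHD1 that the study drew from its arrays of these lines, which is opposite to their direction as labelled here and is no independent evidence on them.

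The promoters of MSMO1 and NSDHL are shown because MSMO1 was the called sterol enzyme with the largest fold change among those with 1 annotated start, and NSDHL the called one with the most NF-Y boxes. They lie on the plus strand of GRCh38.p14, at chr4:165327474-165327668 and chrX:152830825-152831062, and capitals mark NF-Y boxes.
MSMO1: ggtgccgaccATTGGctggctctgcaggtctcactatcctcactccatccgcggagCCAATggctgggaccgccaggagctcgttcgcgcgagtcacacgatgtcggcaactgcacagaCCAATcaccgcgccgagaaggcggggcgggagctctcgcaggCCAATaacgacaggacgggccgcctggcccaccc
NSDHL: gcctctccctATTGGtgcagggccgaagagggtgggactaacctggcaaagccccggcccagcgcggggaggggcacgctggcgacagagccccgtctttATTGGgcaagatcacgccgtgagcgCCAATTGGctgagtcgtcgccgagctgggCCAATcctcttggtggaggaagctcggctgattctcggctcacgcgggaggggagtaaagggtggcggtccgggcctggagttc
Neither holds an SRE match of the forms searched. MSMO1 holds 4 NF-Y boxes, the nearest from -34 to -30, and NSDHL holds 5, with a pair that overlap on opposite strands between -113 and -106.

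TM7SF2 and SC5D lay at or below the control. TM7SF2, a sterol reductase, had a log2 fold change of -0.06 (standard error 0.056) with overlapping lines. SC5D, the desaturase that acts just before DHCR7, gave 9.53, 9.87 and 9.61 on the arrays labelled HEK293-CT and 9.61, 9.42 and 9.40 on those labelled HEK-BAHD1. The lines overlapped, HEK293-CT replicate 2 stood highest, and the log2 fold change was -0.19 (standard error 0.10), with no call. STARD4, which moves cholesterol between membranes and is a known SREBP-2 target, gave 8.60, 8.60 and 8.61 against 9.0, 8.97 and 8.80. It was called higher by 0.32 (standard error 0.066) without overlap, and HEK-BAHD1 replicate 3 stood nearest to the control. That call stood in only 1 of the 6 fits that left out an array, the one without HEK-BAHD1 replicate 3, with a limma adjusted p of 0.0161 to 0.0652 over the 6.

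**Figure D2:**
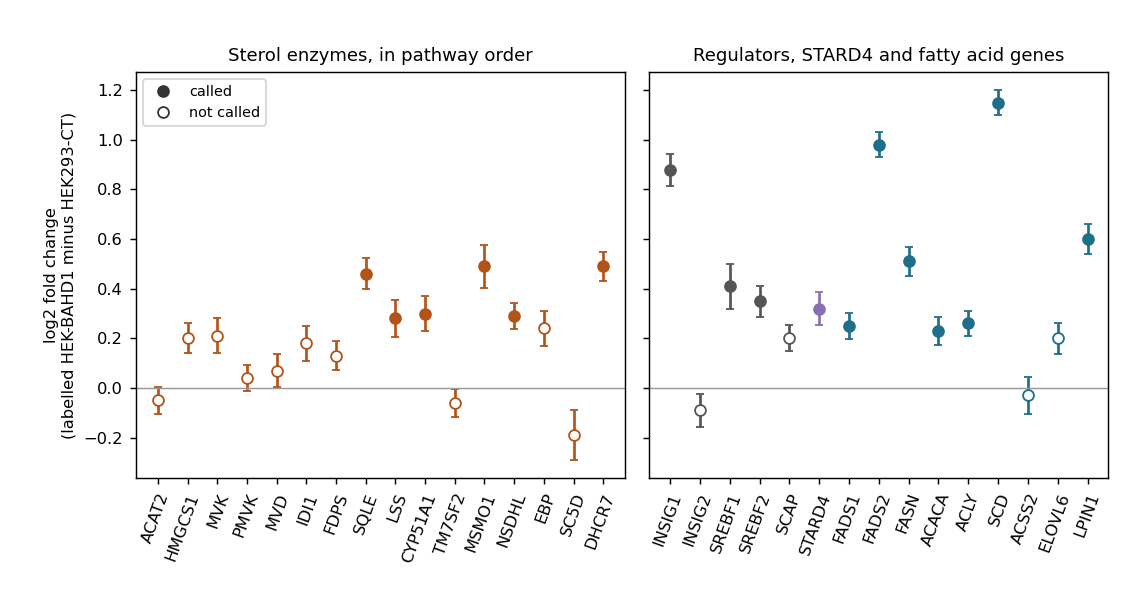
Log2 fold change of each measured gene, labelled HEK-BAHD1 minus HEK293-CT (vertical axis), with the standard error of the limma fit over 3 arrays per line as bars. Filled circles are called genes and open circles genes without a call; in the left panel the 6 called sterol enzymes all stand from SQLE onward, and in the right panel SCD, FADS2 and INSIG1 stand highest.

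The branches were compared by their medians. The sterol median of 0.20 lay 0.06 below the fatty acid median of 0.26, while the means were 0.19 ± 0.20 (SD, n = 16 genes) and 0.46 ± 0.39 (SD, n = 9 genes). SCD, FADS2, LPIN1 and FASN each exceeded the largest sterol fold change, and the rest of the fatty acid genes lay within the range of the sterol enzymes. The difference of medians is a description without a test, and in the fits that left out 1 array it lay between -0.10 and -0.05, at -0.10 without HEK-BAHD1 replicate 1. It shrank to -0.02 with the LPE test, which takes medians over arrays, and to -0.04 after quantile normalization. Array by array, the mean of the sterol enzymes over the control mean was 0.215, 0.205 and 0.155 on HEK-BAHD1 replicates 1, 2 and 3. The mean of the fatty acid genes was 0.476, 0.474 and 0.436 in the same order. HEK-BAHD1 replicate 3 was the lowest of its line in both branches, with 12 of 16 sterol enzymes below the mean of their line there. On the control arrays these means stayed between -0.024 and 0.039 for the sterol enzymes and between -0.012 and 0.014 for the fatty acid genes.

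Motif matches were counted over all promoters as a description. RefSeq promoters were at hand for 29 of the 33 genes, in 42 promoters, and not for ACAT2, FDFT1, SQLE and FASN. A loose SRE was found for 6 of the 29 genes (20.7%), namely SREBF2, INSIG1, SCD, ACACA, IDI1 and SC5D, and for 7.0% of all 27305 genes. Counted by promoter, since genes differ in their number of starts, the shares were 16.7% of 42 and 5.9% of 35116. The SRE core was found for 1 gene, SREBF2, and for 1.4% of all genes. Those with a match include SC5D, which had the lowest fold change, so a match and a call did not go together in every gene.

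NF-Y boxes were found in most sterol promoters. At least 1 box lay in a promoter of 13 of 15 sterol enzymes (86.7%), 5 of 8 fatty acid genes (62.5%) and 39.7% of all genes. Among genes with a probe set of their own, the share was 42.2%. Of the 20 sterol promoters, 7 held 3 or more boxes (35.0%), against 3.26% of all 35116 promoters and 0 of the 15 fatty acid promoters. These were the promoters of MVK and NSDHL with 5 boxes, MSMO1 with 4, and EBP, FDPS, MVD and IDI1 with 3. Of these 7 genes, MVK, MVD, IDI1 and FDPS act before squalene and were not called, EBP was not called either, and NSDHL and MSMO1 were. By letters alone, the GC box was found for 28 of the 29 genes (96.6%) and for 65.9% of genes with a probe set of their own, and the E-box for 4 (13.8%), INSIG1, SCAP, LSS and SC5D, against 10.9%. A match shows letters in a window and not a bound site, and a promoter without one may be bound elsewhere.

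**Figure D3:**
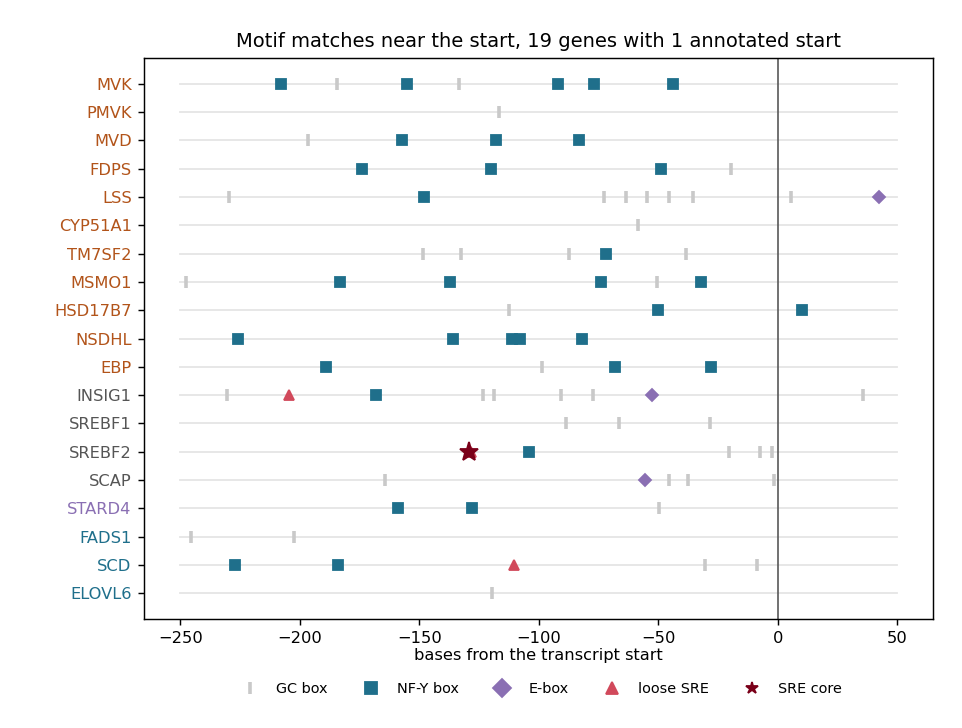
Positions of motif matches from 250 bases before to 50 after the transcript start (horizontal axis, bases) for the 19 genes with 1 annotated start (rows). Squares are NF-Y boxes, triangles loose SRE, the star the SRE core, diamonds E-boxes and grey ticks GC boxes; several sterol promoters carry 3 to 5 squares, and the star stands at SREBF2.

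Genes next to the synthesis pathway were read from 6 lists that hold none of the 33 genes. The shares of all tested probe sets called were 6.79% higher and 6.39% lower. Over the 89 measured genes of these lists, 14 calls were higher and 8 lower, around a median log2 fold change of 0.01. With each array centred on its median, these counts became 8 and 10, and the calls over all tested probe sets went from 1430 higher and 1345 lower to 1125 and 1912. After quantile normalization they were 16 and 4 for the lists. Of the 22 calls, 6 stood in each fit that left out 1 array (SCARB1, ABCG1, ACSL1, ACSL4, AGPAT2 and CPT1A), 8 stood in none (ERLIN2, UBXN8, FNTA, PGGT1B, RABGGTB, ELOVL2, ELOVL5 and HADH), and the others in some. The counts over the lists fell to 6 higher without HEK293-CT replicate 3 and without HEK-BAHD1 replicate 1 or 2, and to at most 2 lower in each of the 6 fits, with 0 lower without HEK293-CT replicate 3.

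The machinery that cuts and turns over SREBP held a few calls in both directions. Of 16 measured genes, 2 were called higher and 2 lower, with a median log2 fold change of -0.09. Over the 21062 probe sets the shares were 6.79% and 6.39%, and whether these counts depart from them was not tested. MBTPS1, the first protease to cut SREBP, was higher by 0.25, with 9.98, 9.94 and 9.95 on the arrays labelled HEK293-CT against 10.21, 10.21 and 10.19. ERLIN2, an endoplasmic reticulum protein that binds the SCAP complex, was higher by 0.22. MARCHF6, a ubiquitin ligase that degrades SQLE, had a log2 fold change of -0.25, with 10.78, 10.68 and 10.75 against 10.48, 10.54 and 10.43, and UBXN8, which acts in degradation at the endoplasmic reticulum, had one of -0.22. No action of MARCHF6 or UBXN8 on SREBP itself was tested. MBTPS1 and MARCHF6 kept their call in 2 of the 6 fits that left out an array, and ERLIN2 and UBXN8 in 0. The side branch that uses farnesyl diphosphate for prenyl groups, dolichol and ubiquinone had 0 of 12 genes called higher and 3 lower, RABGGTB, PGGT1B and FNTA, subunits of prenyl transferases, at -0.24, -0.21 and -0.20. All 3 calls were lost in each of the 6 fits that left out an array, with limma adjusted p values of 0.0525 to 0.142, and also after quantile normalization and with the replicate number as a block. At an unadjusted p under 0.05, 0 of the 12 were higher in limma, and the LPE test called 0 higher.

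Among 14 genes that move or esterify sterol, 2 were called higher and 0 lower, with 2 lower at an unadjusted p under 0.05 in limma and 1 lower by the LPE test. SCARB1, the receptor that takes up cholesterol esters from HDL, gave 8.33, 8.34 and 8.40 on the arrays labelled HEK293-CT and 8.93, 8.93 and 8.96 on those labelled HEK-BAHD1. Its lines were well apart, with a log2 fold change of 0.58, and LIPA, the lysosomal acid lipase, was higher by 0.26. The call of LIPA stood in only 1 of the 6 fits that left out an array. Of 6 measured genes known as LXR targets or parts of sterol efflux, ABCG1, a sterol exporter, was higher by 0.41, the acyltransferase LPCAT3 by 0.30, and the phosphodiesterase SMPDL3A had a log2 fold change of -0.45.

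Genes that supply, elongate and esterify fatty acids lay closest to the synthesis genes, with 6 of 27 called higher, 2 lower and a median log2 fold change of 0.15. The acyl-CoA synthetase ACSL4 gave 8.24, 8.39 and 8.36 against 8.76, 8.73 and 8.75, and was higher by 0.42. AGPAT2, which makes phosphatidate, was higher by 0.41 and ACSL1, another acyl-CoA synthetase, by 0.39. None of these 3 overlapped between lines, and ACSL4 is on the same X-linked list of down-regulated genes, opposite to its direction as labelled here. LPIN1 and its relatives differed, since LPIN3 was higher by 0.34 on the log2 scale while LPIN2 had a log2 fold change of -0.26, called lower. GPAM, the first acyltransferase of glycerolipid synthesis and a known SREBP-1 target, had one of -0.31, called lower. The calls of GPAM and LPIN2 each stood in 1 of the 6 fits that left out an array, and that of LPIN3 in 2. The LPE test did not call LPIN3, at an adjusted p of 0.136. Of 14 fatty acid oxidation genes, 2 were called higher and 0 lower, with 2 lower at an unadjusted p under 0.05 in limma and 0 lower by the LPE test. Those counts of calls stand beside the same shares of all tested probe sets. CPT1A, the gate for fatty acid entry into mitochondria, gave 6.23, 6.43 and 6.30 against 6.71, 7.03 and 6.85. It was higher by 0.54, and HADH, a dehydrogenase of the same pathway, by 0.26. The call of HADH stood in 0 of the 6 fits that left out an array. As these lists were read on the contrast that picked the synthesis genes, no test between the lists was made.

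**Figure D4:**
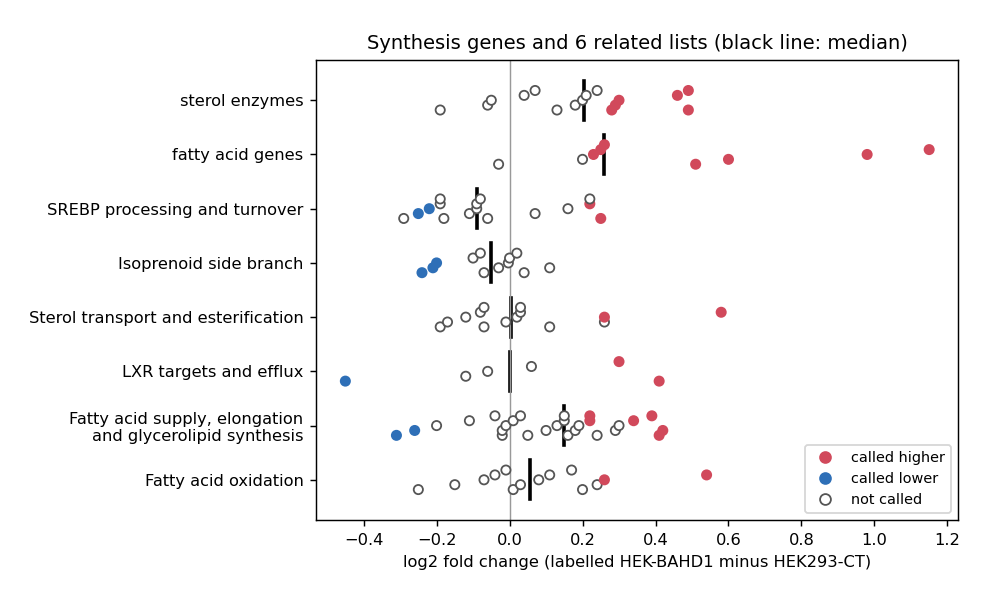
Log2 fold changes, labelled HEK-BAHD1 minus HEK293-CT (horizontal axis), of the sterol enzymes, the fatty acid genes and 6 lists of neighbouring genes (rows); each circle is a gene and the black line the median. Red circles were called higher, blue circles called lower and open circles not called; medians of the neighbouring lists lie between -0.09 and 0.15, against 0.20 and 0.26 for the synthesis branches.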

How the data were processed

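Total RNA of both lines was hybridised to Affymetrix HuGene ST arrays. The authors deposited log2 values with 2 decimals, made from the probe intensities by RMA (background correction, normalization across arrays and summary per gene). The RMA version and the genome build of the array annotation are not given in the sources used here. The paper names another series for its arrays, and this series was taken as that experiment because lines and replicates match.

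Of 28869 probe sets, 21062 named at least 1 gene and entered a limma fit (version 3.58.1, under R 4.3.3) with the Benjamini-Hochberg adjustment and no block. The threshold of 0.2 on medians is that of the authors. The LPE test of the methods was written anew, smoothing the variance over 100 bins of intensity (spline with 10 degrees of freedom). Both tests were tested on simulated data. Values were given on every array for called genes, for the regulators and for the largest and smallest fold change of each branch, and up to 3 called genes of each neighbouring list were named by size, with the few others where a count was small. The genes and lists were chosen with earlier results of these data known. Sequences came from RefSeq (GRCh38.p14). The stretches printed were chosen after the values were seen, because the SRE core was in no called gene of either branch. Alternatives were another test, other scalings, filters and variance models, a block for the replicate number, the mean of a gene's probe sets and leaving out each array.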

Additional observations from a re-analysis of the deposited data

How the results depend on the processing

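Of the 17 calls among the synthesis genes, 11 stood under all 9 other settings of test, scaling, filter and variance, and 8 stood in all 6 fits that left out 1 array (SQLE, MSMO1, DHCR7, INSIG1, FADS2, FASN, SCD and LPIN1). Settings other than leaving out an array gave 11 to 20 calls, and 0 calls lower. Centring the arrays on their medians lowered the sterol median to 0.16 and the fatty acid median to 0.23, with 8 related genes higher, and took out a shift of 0.037 between the lines. Quantile normalization gave a sterol median of 0.24 and 4 related genes lower. The LPE test put the difference of branch medians at -0.02. Testing all probe sets left 9 related genes higher and 3 lower. Without single arrays, 8 to 13 synthesis genes, 3 to 5 sterol enzymes and 4 to 6 fatty acid genes were called higher. The sterol and fatty acid medians were then 0.18 to 0.22 and 0.26 to 0.28, and differed by -0.10 to -0.05. Of the related genes, 6 to 9 were called higher and 0 to 2 lower in those fits. BAHD1 kept its direction, from -3.18 to -3.03. ACSS2, near 0 throughout, was 0.03 without HEK-BAHD1 replicate 2 (limma adjusted p = 0.872). Causes of these moves were not tested, and the fits without an array also rest on fewer arrays.

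The replicate numbers are shared by the lines. Deviations of same-numbered arrays from the mean of their line correlated at -0.077, 0.074 and -0.038. Those of arrays with different numbers correlated at -0.136 to 0.176. With 3 arrays per line, these values cannot show whether the samples were paired. With the number as a block, 11 synthesis genes, 4 of them in the fatty acid branch, 7 related genes higher and 0 lower were called.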
